A study of Mus musculus with 4 samples.

Results

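The claudin family of tight junction proteins was examined through the listed genes Cldn1, Cldn2, Cldn3, Cldn4, Cldn6, Cldn7, Cldn8, Cldn12, Cldn14 and Cldn15. They were chosen with earlier results of these data known, and the array named 13 further claudin genes. The 10 listed members, of 16593 genes named on the array, carried 13 of the 25697 probes. RNA of whole livers from mice of the B6;129 mixed strain at postnatal day 1 was measured on 4 bead arrays (MouseRef-8 v2.0, Illumina), 2 for controls (Control 1 and Control 2) and 2 for double knockouts (DKO 1 and DKO 2). The genotype given for the controls is wild type, and that of the knockouts is Lats1-/-;Lats2f/fl;Alb-cre, in which Lats1 is missing in every cell and the albumin-driven Cre removes Lats2 from hepatoblasts and their descendants. Blood, vessel and mesenchymal cells of the liver keep Lats2 in this model. The labels give all neonates as female and as coming from the same pregnant mice, and do not state that each array is a separate animal, so p-values measure the spread between these samples, which may be technical. Where livers of a group are set against each other below, the values are those of single arrays.

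Claudins are membrane proteins with a pair of extracellular loops that meet those of the neighbouring cell and, together with occludin and junction adhesion molecules, form the strands of the tight junction. Some members tighten the paracellular space (Cldn1, Cldn3, Cldn4), while others form charge-selective pores through it (Cldn2, Cldn15). In the liver these junctions separate bile from blood, both along the canaliculi between hepatocytes and in the bile duct epithelium. LATS1 and LATS2 are kinases of the Hippo pathway that hold back the co-activators YAP and TAZ, and angiomotins link this pathway to the tight junction.

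Between 12514 and 13641 probes were detected per array (48.7% to 53.1%). No probe was named Lats1. The only Lats2 probe read 5.92 and 5.47 on the log2 scale in controls and 6.54 and 6.07 in DKO (change 0.61 ± 0.37 SE, adjusted p = 0.53). Whether it lies in the deleted stretch is not known, so it does not check the labels. Control 2 is labelled female, but the Y-linked Eif2s3y read 11.31 on it against 4.69 to 4.94 on the other 3 arrays. Y-linked Kdm5d read 7.18 on it against 4.78 to 4.93, and the female marker Xist 5.16 against 9.07 to 9.86. Y-linked Uty differed little (5.64 against 5.11 to 5.53), but it was detected on 1 array only. Its values lay near or below the lowest detected value of an array (5.46 to 5.69), so it says little about sex. The controls may therefore differ in sex, and the changes of the called claudins are also given without Control 2. Of 12 hepatocyte markers all were detected and 5 were lower in DKO, and their summed intensity was 203362 to 216682 in controls and 138040 to 168626 in DKO. Of the 8 biliary markers with a probe, 7 were detected and 3 were higher (Krt7, Krt19 and Bicc1), with Cftr detected on no array, and their summed intensity was 16058 to 23006 in controls and 18011 to 19549 in DKO. Aqp1 was the brightest biliary marker on every array and so the largest term of these sums. It read 14.34 and 13.70 in controls and 13.49 and 12.75 in DKO (change -0.91, adjusted p = 0.37). Of 6 intestine markers, Cdx1, Cdx2, Fabp2 and Vil1 were detected on no array, Lgals4 was detected on all (10.11 and 8.77 in controls, 10.03 and 7.73 in DKO) and Cdh17 in both DKO livers alone (5.62 and 7.02, adjusted p = 0.25). No array detected 4 of 5 markers of the exocrine pancreas and 3 of 4 of the kidney tubule.

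Loss of Lats1/2 was accompanied by a rise of Cldn2, Cldn4 and Cldn6 and a fall of Cldn1. Values are log2 intensities after background correction and quantile normalization, and a change is DKO minus control, tested with limma and called at an adjusted p under 0.05 over all probes tested. Of the 10 members, 8 had a probe detected on at least 2 arrays and were tested. Of these, 3 were called higher, where 1.75% of all 9502 genes tested were, and 1 was called lower, where 1.68% were. Both DKO values lay above both control values for 6 of the 8 (22.7% of all genes), below them for 1 (22.8% of all genes) and overlapped them for Cldn15. The median change over the 8 tested members was 1.58, against 0.0046 over all genes tested. Since the members were chosen with earlier results of these data known, these shares describe them and are no test of the family. An exact permutation test of 2 arrays against 2 cannot give a two-sided p below 0.33, which all 7 members without overlap reached, so calls rest on the fit across all probes.

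**Figure D1:**
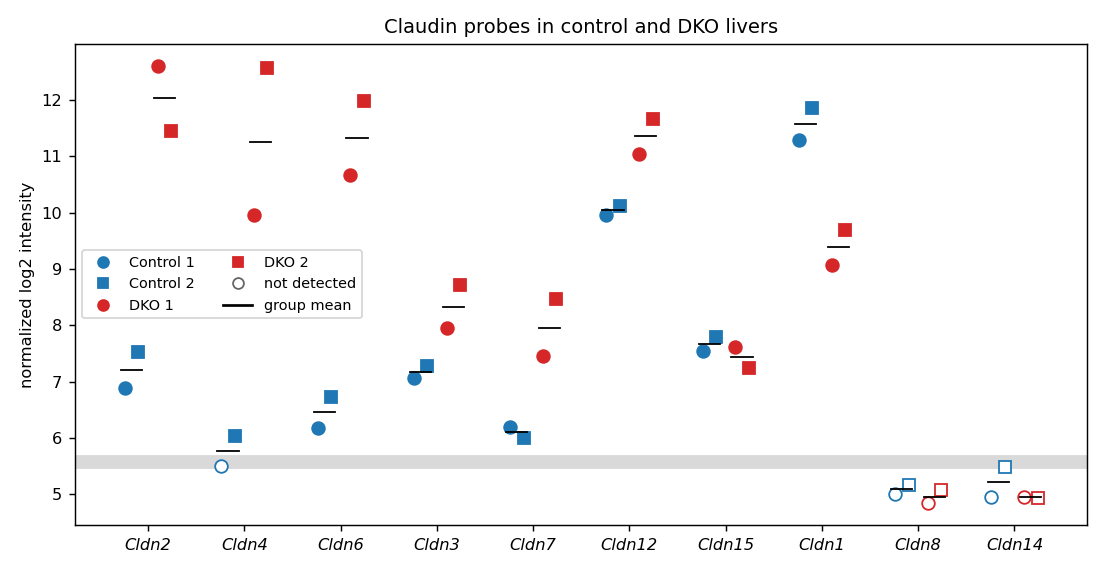
Normalized log2 intensity of the 10 claudin genes on each array (circles, replicate 1; squares, replicate 2; blue, control; red, DKO), by the brightest probe of each gene. Black lines are group means, open symbols are values not detected, and the grey band spans the lowest detected value of the 4 arrays. Cldn2, Cldn4 and Cldn6 lie at 5.50 to 7.53 in controls and at 9.95 to 12.61 in DKO livers, Cldn1 falls, and Cldn8 and Cldn14 stay in or below the band.

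Cldn2, which forms a pore for cations and water and is known in liver from hepatocytes around the central vein, rose strongly in both DKO livers. Its deposited intensity was 285 and 318 in Control 1 and Control 2, and 6294 and 2856 in DKO 1 and DKO 2. After normalization these became 6.88 and 7.53 in controls and 12.61 and 11.45 in DKO. All 4 values were above detection, the groups were far apart, and DKO 1 was the higher DKO liver. The change was 4.82 ± 0.48 (SE, n = 2 and 2; adjusted p = 0.0041), a fold of 28.3 with a 95% confidence interval of 13.0 to 61.6. Cldn2 is an X-linked gene, and without Control 2 the change was 5.15 (adjusted p = 0.015).

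Cldn6, a claudin of embryonic epithelia, was also detected on all 4 arrays. Its intensity was 230 and 247 in controls and 1747 and 4113 in DKO 1 and DKO 2. The normalized values were 6.17 and 6.73 in controls against 10.67 and 11.98 in DKO. The groups did not overlap, and here DKO 2 was the higher liver. The change was 4.87 ± 0.50 (SE, n = 2 and 2; adjusted p = 0.0042), or 29.3-fold with an interval of 13.0 to 65.9. Without Control 2 it was 5.15 (adjusted p = 0.017).

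Cldn4, a barrier-forming claudin of many ducts and, with Cldn3, a receptor of an enterotoxin of Clostridium perfringens, was at the edge of detection in control livers. Its intensity was 195 in Control 1, where the detection p was 0.052, and 212 in Control 2. In DKO 1 and DKO 2 it was 1138 and 6087. On the normalized scale Control 1 and Control 2 read 5.50 and 6.04, and DKO 1 and DKO 2 read 9.95 and 12.57, so that both DKO livers were far above both controls yet differed widely from each other. The change was 5.49 ± 0.78 (SE, n = 2 and 2; adjusted p = 0.013), a fold of 45.0 with an interval of 12.7 to 160. It was 5.22 with an adjusted p of 0.081 without Control 1, and 5.76 with 0.047 without Control 2. The size depended on the background step: as ratios of mean deposited intensity, before any correction, the rises were 17.7-fold for Cldn4, 15.2-fold for Cldn2 and 12.3-fold for Cldn6. With the authors' normalized values Cldn4 was not called (3.76, adjusted p = 0.12). Without background correction only Cldn2 of the 4 called members was still called, and with every probe tested none was (adjusted p = 0.071 to 0.15).

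Cldn1, a barrier-forming claudin of the epidermis and of hepatocytes, was the tested member that moved the other way. Its intensity was 2967 and 3616 in controls and 680 and 942 in DKO 1 and DKO 2. The normalized values were 11.29 and 11.87 in controls and 9.08 and 9.69 in DKO. It was detected on all arrays, both DKO livers were lower than both controls, and the DKO livers still read well above background. The change was -2.19 ± 0.40 (SE, n = 2 and 2; adjusted p = 0.032), leaving 0.219 of the control level with an interval of 0.115 to 0.417. The call was lost without Control 1 (-2.48, adjusted p = 0.085), without Control 2 (-1.90, adjusted p = 0.15) and without DKO 1 (-1.88, adjusted p = 0.051), while the change stayed negative with each array left out.

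These RNA levels come from whole livers, where fewer cells of a type and less RNA per cell cannot be told apart. In these livers 5 of 12 hepatocyte markers were called lower and 3 of 7 tested biliary markers higher, while the others passed in neither direction. The summed biliary intensity of the groups overlapped, but its largest term was Aqp1, which was not higher in DKO. The overlap of the sums therefore does not show that biliary content was alike in the groups. The part of the cell types behind these markers in the claudin changes was not tested.

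Cldn7, Cldn12 and Cldn3 were higher in both DKO livers without passing the adjusted threshold. Cldn7, a claudin found along the lateral membrane of many epithelia, read 6.20 and 6.0 in controls and 7.46 and 8.46 in DKO 1 and DKO 2. The change of Cldn7 was 1.86 ± 0.42 (SE, adjusted p = 0.072), and with each array left out it was 1.36 to 2.36, with an adjusted p of 0.010 without DKO 1 and of 0.22 to 0.32 without any of the others. Cldn12, an atypical claudin without the PDZ-binding end that ties other claudins to ZO-1, read 9.97 and 10.12 in controls and 11.05 and 11.66 in DKO. It was well above background in all livers, and its change was 1.31 ± 0.37 (SE, adjusted p = 0.13). Cldn3, a barrier-forming claudin, read 7.07 and 7.27 in controls against 7.94 and 8.71 in DKO, a change of 1.16 ± 0.39 (SE, adjusted p = 0.21). For each of these 3 the groups were apart, with DKO 2 the higher liver, and the 95% interval of the change lay above 0 (0.86 to 2.86 for Cldn7, 0.45 to 2.17 for Cldn12 and 0.24 to 2.07 for Cldn3).

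Cldn15, a cation pore of the intestine, did not separate the groups. Its brightest probe read 7.55 and 7.79 in controls and 7.62 and 7.25 in DKO 1 and DKO 2, a change of -0.24 with an interval of -1.06 to 0.58 (adjusted p = 0.84). A dimmer probe of Cldn15, detected in 1 liver of each group, gave -0.41 (adjusted p = 0.74), and the remaining probe was detected on no array. Cldn8, a claudin of the distal nephron, was detected on no array by either of its probes, whose intensities were 160 to 182. Cldn14, mutated in a form of inherited human deafness, was likewise detected on no array, with intensities of 168 to 193. No change of Cldn8 or Cldn14 can be given, since both groups lay at background.

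**Figure D2:**
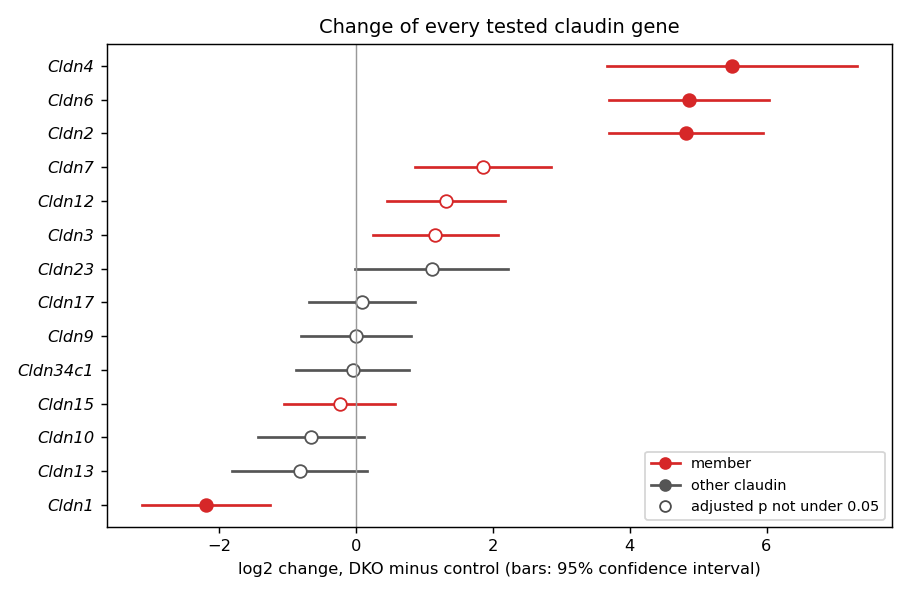
Log2 change (DKO minus control) of the 14 tested claudin genes, with 95% confidence intervals. Red marks the listed members, grey the other claudins on the array, and filled symbols an adjusted p under 0.05. Cldn4, Cldn6 and Cldn2 stand between 4.82 and 5.49, Cldn1 at -2.19, and the 6 other claudins lie between -0.82 and 1.10 with none called.

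The rest of the family is given by its values. Because the listed members were chosen with earlier results of these data known, the other claudins are not an independent comparison group. The array named 18 probes of 13 further claudin genes, of which 6 genes were tested and 0 called (0 also had an unadjusted p under 0.05, where 16.1% of all genes had). Of the other 7, Cldn11, Cldn19, Cldn34b2 and Cldn34b3 were detected on no array, and Cldn16, Cldn18 and Cldn34b4 on 1 array each. Cldn23 read 6.0 and 4.93 in controls and 6.20 and 6.94 in DKO, a change of 1.10 (adjusted p = 0.33), with 1 control not above detection. Cldn13 read 7.64 and 8.23 in controls and 6.71 and 7.52 in DKO, a change of -0.82 (adjusted p = 0.44). The changes of Cldn10, Cldn34c1, Cldn9 and Cldn17 were -0.66, -0.05, 0.0021 and 0.09. A dimmer tested probe of Cldn10 changed by 0.07, with overlapping groups.

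Claudin genes often lie next to each other, and the tested neighbours are set side by side here. Cldn6 and Cldn9 are adjacent protein-coding genes on chromosome 17. Cldn9, known for its role in the inner ear, read 7.10 and 7.46 in controls and 7.26 and 7.30 in DKO, so its groups overlapped where those of Cldn6 stood apart. The interval of the Cldn9 change was -0.80 to 0.80, and that of Cldn6 was 3.70 to 6.04. On chromosome 5, Cldn4 adjoins Cldn3, and 1 protein-coding gene (Mettl27) lies between Cldn4 and Cldn13. The intervals there were 3.67 to 7.32 for Cldn4, 0.24 to 2.07 for Cldn3 and -1.81 to 0.17 for Cldn13. The difference between neighbours was not itself tested.

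**Figure D3:**
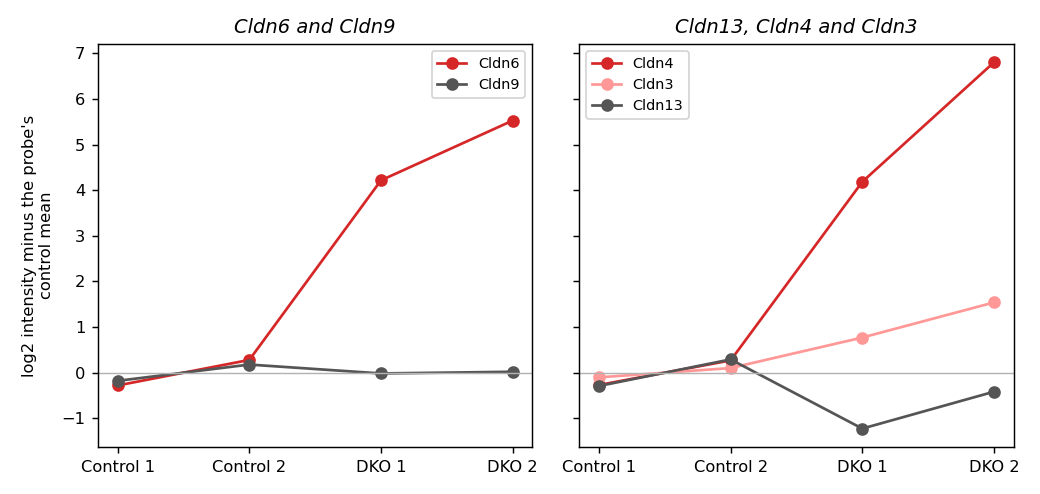
Log2 intensity of neighbouring claudin genes on each array, minus the control mean of the same probe. Left, Cldn6 rose by over 4 in both DKO livers while the adjacent Cldn9 stayed near 0; right, Cldn4 rose, Cldn3 was moderately higher and Cldn13 was lower in both DKO livers.

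The DKO arrays did not show the claudin changes to the same extent. Whether these differences lie between animals or are technical was not tested. Cldn4 read 2.62 log2 units higher in DKO 2 than in DKO 1, a difference exceeded in size by 0.463% of the genes tested, where the median difference was 0.38. Cldn6 differed by 1.31 the same way (5.47% of genes differed more). Cldn2 differed by 1.15 the opposite way (7.71% of genes differed more), so the DKO array that read lower for Cldn2 read higher for Cldn4 and Cldn6. DKO 2 was above DKO 1 in 6 of the 8 tested members, and in 52.4% of all genes. Control 2 was likewise above Control 1 in 7 of the 8 members, and in 51.7% of all genes. The sizes of the differences between the 2 controls were 0.16 to 0.65 for the 8 members, against a median of 0.43 over all genes.

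**Figure D4:**
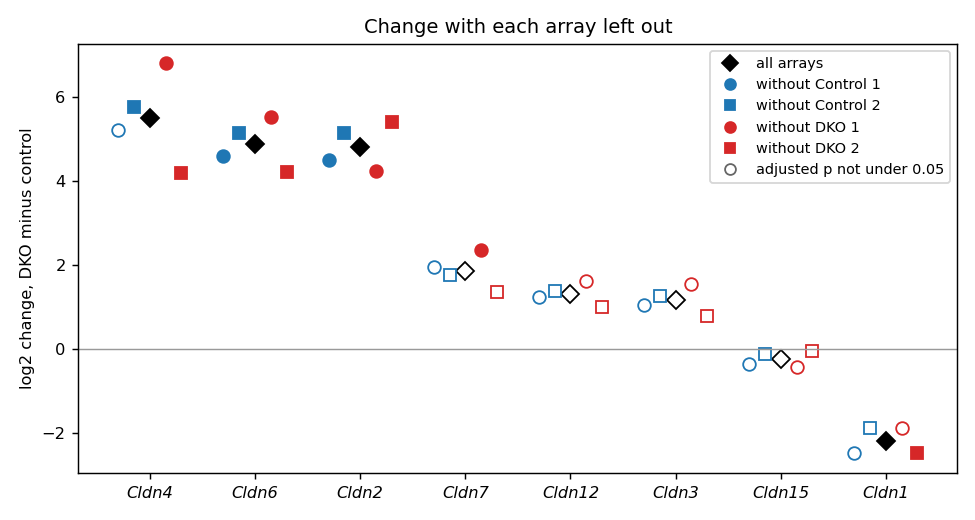
Log2 change of the 8 tested members with all arrays (black diamonds) and with each array left out (blue, a control; red, a DKO liver; circles, replicate 1; squares, replicate 2). Open symbols have an adjusted p of 0.05 or more; Cldn4 ranged from 4.18 to 6.80, Cldn2 from 4.25 to 5.40 and Cldn1 from -2.50 to -1.88.

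The sequence around the start sites of the raised genes was read from the RefSeq promoter table (GRCm38.p6), which held 14 promoters of 9 members, with no entry for Cldn8. Each window runs from 250 bases before to 50 bases after a start site. Both strands were searched for GGAATG, the core that TEAD factors, the DNA-binding partners of YAP, recognize, and for AACCNGTT (grainyhead-like factors), CAAAGTCCA (HNF4) and TATAAA (the TATA box). No match overlapped another. Of the 4 called members, Cldn2 and Cldn6 held a match, and their windows are shown for that reason with the matches in capitals (CATTCC is GGAATG on the other strand):
Cldn2, chrX:139800558-139800857, plus strand: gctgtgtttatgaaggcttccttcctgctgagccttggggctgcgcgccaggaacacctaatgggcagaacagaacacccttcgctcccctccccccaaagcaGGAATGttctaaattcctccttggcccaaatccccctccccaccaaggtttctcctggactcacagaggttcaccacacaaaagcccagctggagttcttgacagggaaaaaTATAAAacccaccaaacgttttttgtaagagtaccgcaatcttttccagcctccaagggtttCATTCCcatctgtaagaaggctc
Cldn6, chr17:23679115-23679414, plus strand: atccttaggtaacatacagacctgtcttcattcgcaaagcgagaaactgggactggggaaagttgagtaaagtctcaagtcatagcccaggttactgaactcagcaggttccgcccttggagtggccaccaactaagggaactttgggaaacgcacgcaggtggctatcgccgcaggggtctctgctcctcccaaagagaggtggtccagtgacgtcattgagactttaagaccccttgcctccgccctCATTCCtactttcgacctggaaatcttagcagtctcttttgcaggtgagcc

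In Cldn2 the TEAD core lay at bases -147 to -142 and, on the other strand, at 28 to 33 relative to the start site, and the TATA box at -35 to -30. In Cldn6 the core lay on the other strand at -1 to 5. Promoters of Cldn4 and Cldn1 held none of the 4 motifs. GGAATG stood in 5 of the 14 member promoters and in 14.7% of all 32851, and the other promoters with it belonged to Cldn7, Cldn14 and Cldn15, so it was present in members that rose, that did not pass the test and that were not detected. TATAAA stood in 1 of the 14 (13.6% of all), AACCNGTT in 0 (2.09%) and CAAAGTCCA in 0 (0.475%). These matches describe the letters and do not show a site in use.

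Claudins work with scaffold, adhesion and polarity proteins, and 40 genes of these junction partners had a probe, of which 31 were tested. Of the 31, 1 was called higher and 0 lower (1.75% and 1.68% of all genes), a share near that over all genes. An unadjusted p under 0.05 was found for 14 (16.1% of all genes). Both DKO values lay above both control values for 22 (22.7% of all genes) and below them for 3 (22.8%), and the median change was 0.79 against 0.0046 over all genes. Cdh17, Cgnl1 and Magi3 passed the detection filter through the DKO arrays alone, and Jam3 and Ildr1 through the control arrays alone. The direction of these genes was thus largely set by the filter. The partner list was chosen with earlier results of these data known, so these shares describe it and are no test. The called gene was Amotl2, an angiomotin that binds YAP and is itself a YAP target. Amotl2 read 5.80 and 5.46 in controls, detected in 1 of them, and 7.65 and 8.39 in DKO, a change of 2.39 ± 0.39 (SE, adjusted p = 0.021). It was not called without Control 1, without Control 2 or without DKO 2, when 0 partner genes passed. The next largest changes were in polarity and strand genes: Pard6g changed by 1.83 (adjusted p = 0.12), Patj by 1.82 (adjusted p = 0.085) and Marveld3, which encodes a relative of occludin, by 1.55 (adjusted p = 0.086). Pard6g was not above detection in Control 2, nor Patj in Control 1, so the size of these changes depends on a value at background. The core strand and scaffold genes gave smaller values, with a change of 0.10 for Ocln (occludin; interval -0.80 to 1.00), 0.33 for F11r (the junction adhesion molecule A) and 1.12 for Tjp1 (ZO-1, adjusted p = 0.15).

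**Figure D5:**
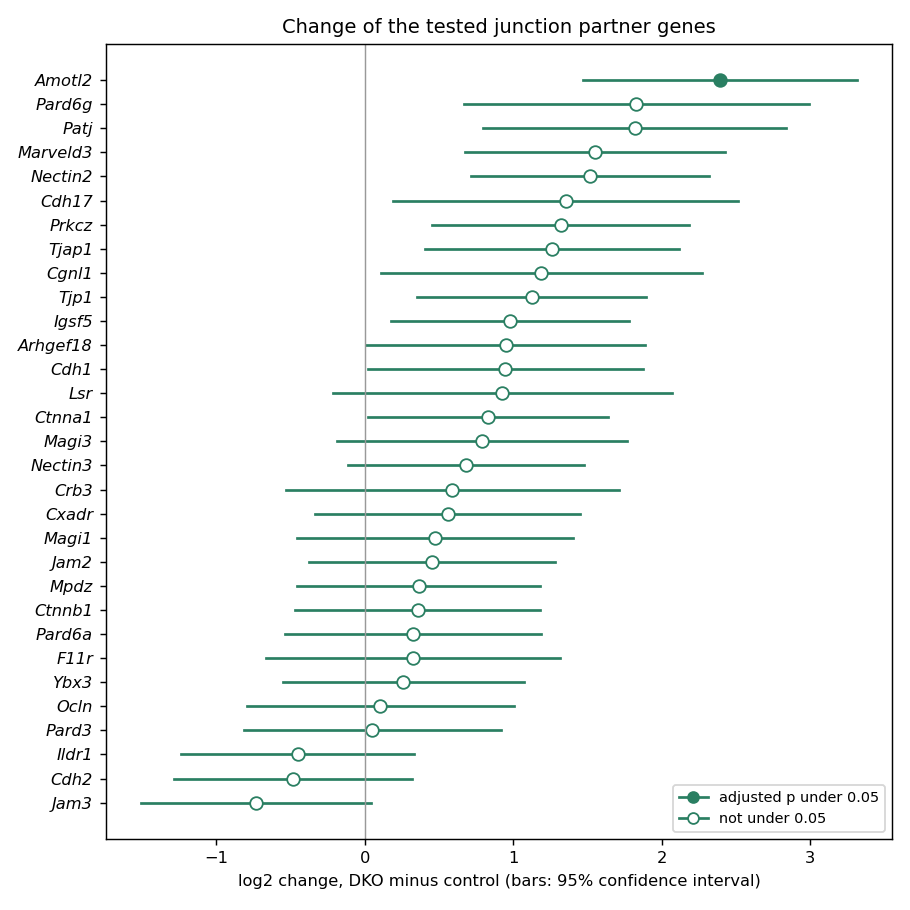
Log2 change (DKO minus control) of the 31 tested junction partner genes with 95% confidence intervals. Filled symbols mark an adjusted p under 0.05; Amotl2 is the only one, at 2.39, and 28 of the 31 changes are above 0, as were 50.4% of those of all genes. Cdh17, Cgnl1 and Magi3 passed the detection filter through the DKO arrays alone, and Jam3 and Ildr1 through the control arrays alone.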

How the data were processed

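Total RNA of the livers was amplified, labelled with biotin and hybridized to bead arrays. The authors deposited a linear intensity for each probe before any scaling of the arrays to each other, a detection p-value beside it, and a second table of normalized intensity. The sources used here name neither the scanner software nor the method of that normalization. Groups and numbers came from the sample titles. Intensities were background-corrected by normexp in limma 3.58.1 (R 4.3.3) with control levels inferred from detection p-values and an offset of 16, which pulls dim changes toward 0, then quantile normalized and log2 transformed. Probes with detection p under 0.05 on at least 2 of 4 arrays were tested (13654 of 25697) with lmFit and eBayes (two-sided, Benjamini-Hochberg over all probes at 0.05). The probe with the highest mean represented a gene. Summed marker intensities are sums of the normalized values on the linear scale. The platform annotation gave 23978 probes 1 symbol, 0 several and 1719 none. The code was tested on simulated data.

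The members and the lists of junction partners and markers were chosen with earlier results of these data known. By rule, all members, all other claudins, the called partners and the 3 partners with the next largest changes were named; Ocln, F11r and Tjp1 were added for their role. Gene order and promoters came from RefSeq tables (GRCm38.p6). Alternatives covered background, offset, normalization, the authors' normalized values, probe filters, an intensity trend, a replicate block, each array left out, averaging of a gene's probes and the methods' t-test, paired by number. With 2 arrays a group, their number limits the precision (median SE of a log2 change 0.37).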

Additional observations from a re-analysis of the deposited data

How the results depend on the processing

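The number of claudins called higher (3) fell to 1 without background correction, to 0 with every probe tested, and to 1 by the methods' t-test unadjusted and 0 after Benjamini-Hochberg adjustment, and it was 6 with a replicate block. It was 2, without Cldn4, with the authors' normalized values (Cldn4 3.76, adjusted p = 0.12) and with detection required on all 4 arrays. The 1 claudin called lower became 0 without background correction, with the authors' normalized values, with every probe tested and by the adjusted methods' t-test. Junction partners called higher (1) fell to 0 without background correction, with the authors' normalized values, with every probe tested, with detection required on all 4 arrays and by the adjusted methods' t-test, and rose to 2 with the mean of a gene's probes, 3 by the unadjusted methods' t-test and 11 with the replicate block; partners called lower (0) became 2 by the unadjusted methods' t-test. With each array left out in turn, the counts ranged from 2 to 4, 0 to 1, 0 to 4 and 0 to 0. A lone array was then assumed to vary like the other group. No direction of a tested member turned under these alternatives. Cldn4 was 3.60 (adjusted p = 0.15) without background correction, and has no value where detection on all 4 arrays was required. The replicate numbers come from titles, which do not say what a number shares; the differences between replicates correlated across groups over the tested probes (r = 0.54), with only 2 pairs. Under the replicate block Cldn3, Cldn7 and Cldn12 passed (adjusted p = 0.025, 0.0050 and 0.013). The cause of these shifts was not tested.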

Other observations

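Some junction partner genes had several probes, chosen here after their values were seen. The 3 tested probes of Nectin2, a cell adhesion molecule of the adherens junction, changed by 1.09, 1.59 and 1.52, none with an adjusted p under 0.05. A dimmer probe of Cxadr, an adhesion receptor of the tight junction, read 7.06 and 6.41 in controls and 8.87 and 8.61 in DKO, a change of 2.00 (adjusted p = 0.037), whereas its brightest probe changed by 0.56 (adjusted p = 0.59). A dimmer probe of Prkcz, an atypical protein kinase C of the polarity complex, was detected in neither control and read 7.54 and 7.55 in DKO. That probe passed the detection filter through the DKO arrays alone, so its adjusted p of 0.014 is no support for a rise. The brightest Prkcz probe read 6.71 and 6.85 in controls and 8.41 and 7.79 in DKO, a change of 1.32 (adjusted p = 0.13). The remaining Prkcz probe was detected on no array. Which transcripts these probes match was not examined.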
